A study of Mus musculus with 19 samples.

Results

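Gene expression in cerebral microvessels, whose endothelial lining forms the blood-brain barrier, was compared between mice exposed to nicotine-free electronic cigarette vapour and mice kept in room air. The comparison takes the 4 libraries titled Nic-free and the 4 titled Room-air, 8 of the 19 libraries of the series, and was set by these titles alone. The other libraries are 3 of electronic cigarette vapour with nicotine (Nic), 4 of cigarette smoke and 4 of a further room air set (titled air). The study asked what electronic cigarette exposure does to the barrier, to inflammation of the brain and to cognition.

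All groups were male C57BL/6 mice, bought at 7 weeks of age and kept under a 12-hour light cycle, with no transgene or deletion named. Nic-free mice received vapour without nicotine and Room-air mice received neither vapour nor smoke. The dose, the length of exposure, the age at collection and the time of day are not given in the sources used here, nor is the carrier liquid. Nothing says that the 4 libraries of a group came from separate animals, so p-values measure the spread between these libraries, which may be partly technical.

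As background, the endothelial cells of brain vessels are sealed by tight junctions, carry glucose, amino acids and drugs through dedicated transporters, and suppress transport by vesicles. They rest on a basement membrane of collagens and laminins shared with pericytes, and take cues from Notch, Wnt, TGF-beta and shear stress. Preparations of whole microvessels also hold RNA of neurons, glia and choroid plexus, the tissue that secretes cerebrospinal fluid. In bulk RNA, fewer cells of a type and less RNA per cell cannot be told apart.

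Gene counts summed to between 15200536 and 19137859 in the Nic-free libraries and between 25266790 and 30185056 in the Room-air libraries. Reads assigned to no counted feature made up 42.1% ± 2.58 in Nic-free and 30.7% ± 2.27 in Room-air (SD, n = 4 each). The exact permutation test gave a two-sided p of 0.0286, the smallest that 4 against 4 allows. The counts do not tell whether these reads lie outside genes or within their introns. The first principal component of the 8 libraries held 48.4% of the variance and separated the groups, with Nic-free libraries between −53.0 and −12.0 and Room-air libraries between 21.2 and 36.2. Markers of choroid plexus and ependyma varied most within the Nic-free group: the summed share of the 12 markers in all gene counts was 2.25, 0.899, 0.541 and 0.133% in the Nic-free libraries, against 2.26, 2.44, 3.00 and 2.94% in the Room-air libraries. Nic-free 1 thus lay next to the Room-air libraries and the other 3 lay below them. The 20 endothelial markers, among them Pecam1 and Slc2a1, summed to 0.279, 0.358, 0.413 and 0.269% in Nic-free, against 0.506, 0.445, 0.534 and 0.380% in Room-air. The 20 neuronal markers made up 2.96 to 3.25% in Nic-free and 2.40 to 2.95% in Room-air, and the 11 oligodendrocyte markers 1.91 to 2.10% in Nic-free and 1.32 to 1.58% in Room-air. In each of the 8 libraries the neuronal and the oligodendrocyte sums thus lay above the endothelial sum. Sums of different marker lists do not measure the shares of cell types. No defining marker of endothelium was at 0, and the plot of marker shares gives each library. What part these cell types have in the differences below was not tested.

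**Figure D1:**
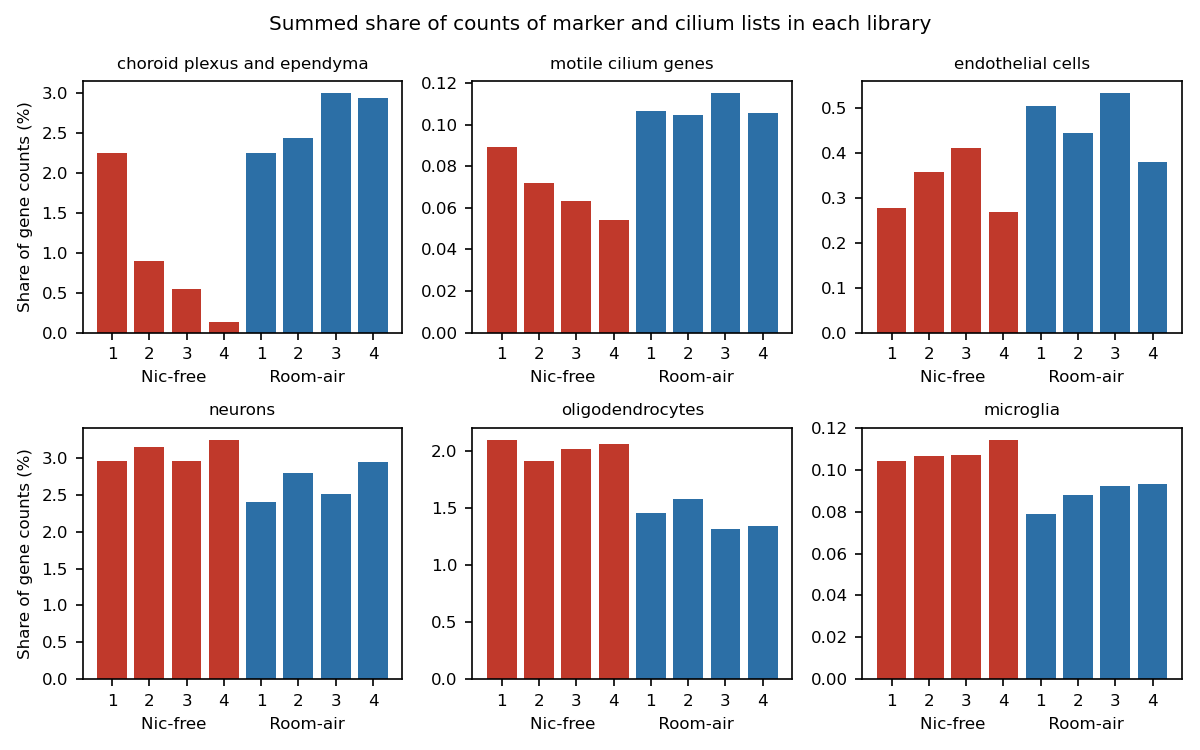
Bars give the share of all gene counts (percent, y axis) taken by each list in the 4 Nic-free libraries (red, left) and the 4 Room-air libraries (blue, right). Choroid plexus and ependymal markers range from 0.133 to 2.25% in Nic-free and from 2.26 to 3.00% in Room-air, while oligodendrocyte markers are higher in all 4 Nic-free libraries.

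Of 17235 genes tested, 1954 were higher (11.3%) and 1799 lower (10.4%) in Nic-free than in Room-air at an adjusted p of 0.05, together 3753 or 21.8% (edgeR quasi-likelihood test, Benjamini-Hochberg adjustment). Most of the differences were small. The median fold among the genes called was 1.40 for rises and 1.48 for falls, and 65.4% of the rises and 52.3% of the falls were under 1.5-fold. A change of at least 2-fold was called for 235 rises (1.36%) and 304 falls (1.76%), and one of at least 4-fold for 25 and 20. The normalised counts of all 4 Nic-free libraries lay above those of all 4 Room-air libraries for 2476 genes (14.4%) and below them for 2087 (12.1%). Below, levels are gene counts normalised to library size (CPM), fold changes are log2 of Nic-free over Room-air with their standard error, and groups of genes are read against 11.3% higher and 10.4% lower. In the lists said below to have no call in a direction by edgeR, that direction held between 0 and 3 members at an unadjusted p under 0.05 and between 0 and 2 by DESeq2.

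The choice of control moves many of the results that follow. With the 4 air libraries in place of the Room-air libraries, 699 genes passed, 488 higher and 211 lower, and 336 of them (8.95% of the reported calls) were also called against Room-air, 23 of the 336 with the opposite sign. Of the reported calls that were also tested against air, 66.2% had the same sign of fold change there. The Nic-free libraries are common to both contrasts, which by itself favours a shared sign. The contrast with air crosses 2 sets of libraries whose difference in handling cannot be told apart from exposure. Fewer genes also passed with a library left out, 2186 without Nic-free 2 and 2346 without Nic-free 4. Leaving out a library by itself lowers the power of the test, and this was not told apart from calls resting on that library. A count of 2 or more in a list that fell by more than 1.5 times when a library was left out is given below with its lowest value. The single falls given below for pericytes, astrocytes, perivascular macrophages, VEGF signalling, the proteasome and complexes III, IV and ATP synthase each became 0 without 1 of the libraries, and so did the single rises of the clotting, p53 and actomyosin lists. Counts also grew: without Room-air 4 there were 4 falls of fatty acid genes and 2 rises of collagens, without Nic-free 1 there were 3 falls of complexes III, IV and ATP synthase and 2 of glutathione transferases, and without 1 library there were 2 falls each of pericyte markers and VEGF signalling and 2 rises of p53 targets. Without Room-air 1, 2 fatty acid genes rose. A named call that was lost without 1 library is given with the highest such adjusted p.

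**Figure D2:**
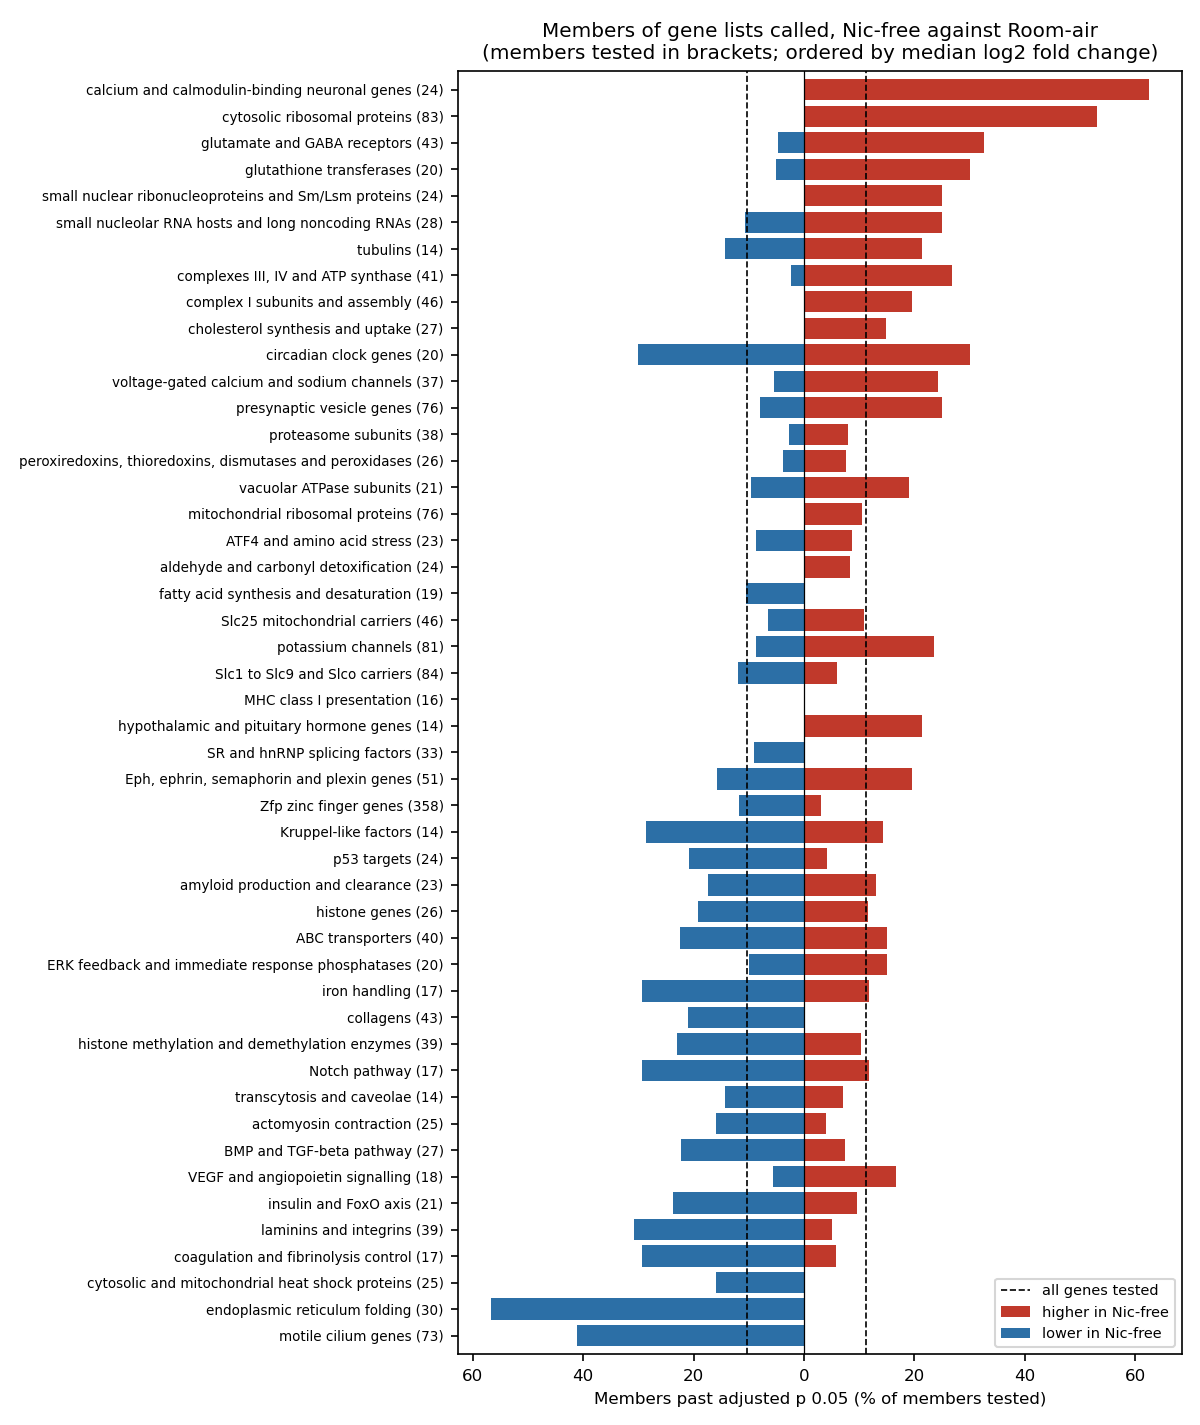
For 48 gene lists, bars give the percentage of tested members called higher (red, to the right) or lower (blue, to the left) in Nic-free than in Room-air, with the number tested in brackets and the lists ordered by median log2 fold change. Dashed lines mark the 11.3% and 10.4% of all genes tested; ribosomal protein and calcium-binding neuronal genes extend farthest to the right, and endoplasmic reticulum folding and motile cilium genes to the left.

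Barrier genes differed among themselves. Ocln, which encodes the tight junction protein occludin (chromosome 13, 100496507 to 100552718, GRCm38), stood at 37.8, 36.8, 38.9 and 29.1 CPM in Nic-free, against 71.4, 64.8, 80.1 and 56.4 CPM in Room-air. The groups did not overlap, and Nic-free 4 was the lowest of its group (log2 −0.93 ± 0.14, edgeR adjusted p 0.000921). Slc2a1, the glucose transporter GLUT1 of the barrier (chromosome 4, 119108711 to 119137983), measured 321, 447, 459 and 271 CPM in the Nic-free libraries and 765, 790.2, 861 and 811 CPM in the Room-air libraries. All Nic-free values were below the lowest Room-air value (log2 −1.11 ± 0.16, edgeR adjusted p 0.000768). Claudin-5, encoded by Cldn5 and abundant in these junctions, had 296, 396, 544 and 331 CPM in the Nic-free libraries, against 401, 424, 351 and 253 CPM in the Room-air libraries. Here the groups overlapped, Nic-free 3 being the highest of the 8 and Room-air 4 the lowest (log2 0.13 ± 0.30, edgeR adjusted p 0.792). The junction scaffold Tjp1 did not pass either (log2 −0.24, edgeR adjusted p 0.16).

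Of the 20 endothelial markers 7 fell (3 without Nic-free 4), none rose and the median log2 fold change was −0.41, against 0.00 over all genes. Besides Slc2a1, falls were called for the adhesion receptor Pecam1 (log2 −0.82), the orphan adhesion receptor Adgrl4 (−1.06), the membrane protein Itm2a (−0.66), the drug efflux pump Abcb1a (−0.69) and the thyroid hormone carrier Slco1c1 (−0.49). The VEGF receptor Kdr did not pass (log2 −0.26). Markers of pericytes fell in 1 of 10, of smooth muscle in none of 10 and of fibroblasts in 2 of 11 (0 without Nic-free 2), with no rise in any of the 3 lists. Pecam1 (edgeR adjusted p 0.0798 without Nic-free 4), Abcb1a (0.0736 without Nic-free 4) and Slco1c1 (0.105 without Nic-free 4) lost their calls with 1 library left out.

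Of 40 ABC transporters tested 6 rose and 9 fell (2 higher without Nic-free 2, and 5 lower without Nic-free 4). The falls held the efflux pumps of the barrier: Abcg2 (log2 −0.63), Abcc4 (−0.92) and Abcb1a, while Abcb1b, a close paralog of Abcb1a, rose (0.60); how reads were divided between such similar genes is uncertain. Abcg2 stood at 54.0, 58.2, 59.0 and 41.4 CPM in Nic-free, against 83.3, 73.1, 102.8 and 71.1 CPM in Room-air, and all Nic-free values lay below all Room-air values. Among 84 carriers of the Slc1 to Slc9 and Slco families 5 rose and 10 fell (2 and 5 without Nic-free 2). These are 5.95% and 11.9%, against 11.3% and 10.4% of all genes. Slc7a5, the large neutral amino acid transporter, measured 122.5, 138, 181 and 113 CPM in the Nic-free libraries and 236, 262, 217 and 202 CPM in the Room-air libraries. It fell without overlap (log2 −0.72 ± 0.15, edgeR adjusted p 0.00434). Slc4a2, an anion exchanger of the choroid plexus among other tissues, fell as well (log2 −1.17), with Nic-free 1, the library with choroid markers closest to those of Room-air, at 223 CPM and the other 3 between 62.7 and 126 CPM, against 267 to 321 CPM in Room-air. Slc4a2 (edgeR adjusted p 0.0877 without Nic-free 2) lost its call with 1 library left out.

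Of 14 genes of transcytosis and caveolae 1 rose (7.14%) and 2 fell (14.3%), against 11.3% and 10.4% of all genes. Cavin2, a coat protein of caveolae, had 34.4, 37.8, 37.6 and 30.3 CPM in the Nic-free libraries, against 71.5, 60.9, 79.7 and 59.8 CPM in the Room-air libraries. Its groups were apart (log2 −0.96 ± 0.12, edgeR adjusted p 0.000366). Pacsin2, a membrane-bending protein, stood at 52.3, 49.4, 51.7 and 53.5 CPM in Nic-free, against 89.9, 83.1, 77.3 and 74.3 CPM in Room-air, a fall with little spread within either group (log2 −0.65 ± 0.11, edgeR adjusted p 0.00156). Cav1, which forms caveolae, had a log2 fold change of −0.17, and Plvap, the diaphragm protein of leaky vessels, −0.09; neither passed.

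Genes that hold clotting in check and dissolve clots fell in 5 of 17 (2 without Nic-free 1), with 1 rise. Plat, tissue plasminogen activator, measured 73.4, 91.4, 95.6 and 81.1 CPM in the Nic-free libraries and 175, 185, 177 and 162 CPM in the Room-air libraries. The lowest Room-air library stood far above the highest Nic-free one (log2 −1.03 ± 0.12, edgeR adjusted p 0.000294). Plaur, the receptor of urokinase, averaged 2.05 ± 0.0989 CPM in Nic-free and 4.85 ± 0.654 CPM in Room-air (SD, n = 4 each; log2 −1.24), and thrombomodulin, Thbd, fell by 0.65 on the log2 scale. Plaur (edgeR adjusted p 0.0727 without Nic-free 2) and Thbd (0.112 without Nic-free 4) lost their calls with 1 library left out.

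Signalling genes of the vessel wall changed in both directions. Of 17 Notch genes 5 fell (2 without Nic-free 2) and 2 rose. The endothelial receptor Notch4 had 33.3, 45.6, 55.7 and 32.6 CPM in the Nic-free libraries, against 84.3, 84.5, 82.4 and 66.6 CPM in the Room-air libraries, and fell (log2 −0.92 ± 0.21, edgeR adjusted p 0.0103). Notch2 stood at 60.2, 50.8, 45.5 and 34.7 CPM in Nic-free, against 87.0, 80.8, 102.6 and 86.7 CPM in Room-air, with no overlap between groups (log2 −0.90 ± 0.14, edgeR adjusted p 0.00111). Hes5, a transcriptional target of Notch in neural cells, went the other way: it measured 24.8, 18.7, 26.6 and 21.4 CPM in the Nic-free libraries and 9.29, 12.2, 8.71 and 10.2 CPM in the Room-air libraries. Every Nic-free value was above every Room-air value (log2 1.18 ± 0.14, edgeR adjusted p 0.000258). Nrarp, a feedback inhibitor of Notch, rose too (log2 0.65), while the endothelial ligand Dll4 did not pass (−0.16).

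The BMP and TGF-beta pathway had 6 falls and 2 rises among 27 genes (3 and 1 without Nic-free 2), the falls led by the ligand Bmp6 (log2 −1.30) and the receptors Tgfbr2 (−0.78), Bmpr2 (−0.76) and Tgfbr3 (−0.73). The rises were Id2 (0.35) and Id4 (0.44), inhibitors of transcription induced by BMP. Fzd4, the Wnt and norrin receptor needed for the barrier, had 10.8, 4.76, 4.99 and 4.07 CPM in the Nic-free libraries, against 29.3, 26.4, 31.7 and 18.8 CPM in the Room-air libraries. It was among the 10 largest falls by the naming rule (log2 −2.12 ± 0.27, edgeR adjusted p 0.000641), with Nic-free 1 highest of its group. Among 18 genes of VEGF and angiopoietin signalling 3 rose (16.7%) and 1 fell (5.56%), together 22.2% against 21.8% of all genes. Vegfd, a growth factor of lymphatic and blood vessels, averaged 7.78 ± 1.47 CPM in Nic-free and 4.02 ± 0.400 CPM in Room-air (SD, n = 4 each; log2 0.96), Vegfb rose by 0.43 and Vegfa, the main angiogenic factor, fell by 0.32 on the log2 scale. Of 14 Kruppel-like factors 4 fell (1 without Nic-free 4) and 2 rose. Klf2, which shear stress induces in endothelium, stood at 60.6, 74.3, 74.5 and 55.8 CPM in Nic-free, against 112, 99.3, 83.9 and 109 CPM in Room-air, all Nic-free values being below all Room-air values (log2 −0.61 ± 0.16, edgeR adjusted p 0.0185; 0.0576 without Nic-free 4), and Klf4 did not pass (log2 −0.44). Bmpr2 (edgeR adjusted p 0.106 without Nic-free 4), Id2 (0.0832 without Nic-free 2) and Vegfa (0.0646 without Nic-free 4) lost their calls with 1 library left out.

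Most of the matrix and adhesion genes called were lower in Nic-free. Of 43 collagen genes 9 fell (20.9%) and none rose. Of 39 laminin and integrin genes 12 fell (30.8%), with 6 falls without Room-air 1, and 2 rose (1 without Nic-free 2). These genes are long, with a median exonic length of 7621 bases for collagens and 6569 for laminins and integrins. In the bins of exonic length that hold these medians, 15.8% and 14.2% of protein-coding genes fell. Col4a1, a chain of the collagen of the vascular basement membrane, measured 153.2, 185, 191 and 160.0 CPM in the Nic-free libraries and 261, 264, 262 and 240.3 CPM in the Room-air libraries. Its partner chain Col4a2 had 195, 221, 239.5 and 196 CPM in the Nic-free libraries, against 287, 322, 286 and 307 CPM in the Room-air libraries. Neither overlapped between the groups, and both fell by similar amounts (log2 −0.57 ± 0.10, edgeR adjusted p 0.00162 for Col4a1, and log2 −0.50 for Col4a2). The laminin chains Lamb1 (log2 −0.74) and Lamc1 (−0.63) and the integrins Itga1 (−0.96), Itga6 (−0.49) and Itgb1 (−0.42) also fell. Myh9, the heavy chain of nonmuscle myosin, was the largest fall among 25 genes of actomyosin contraction (log2 −0.83), of which 4 fell and 1 rose. Itga6 (edgeR adjusted p 0.11 without Nic-free 4) and Itgb1 (0.128 without Room-air 3) lost their calls with 1 library left out. Both calls were also lost with a length term in the fit.

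**Figure D3:**
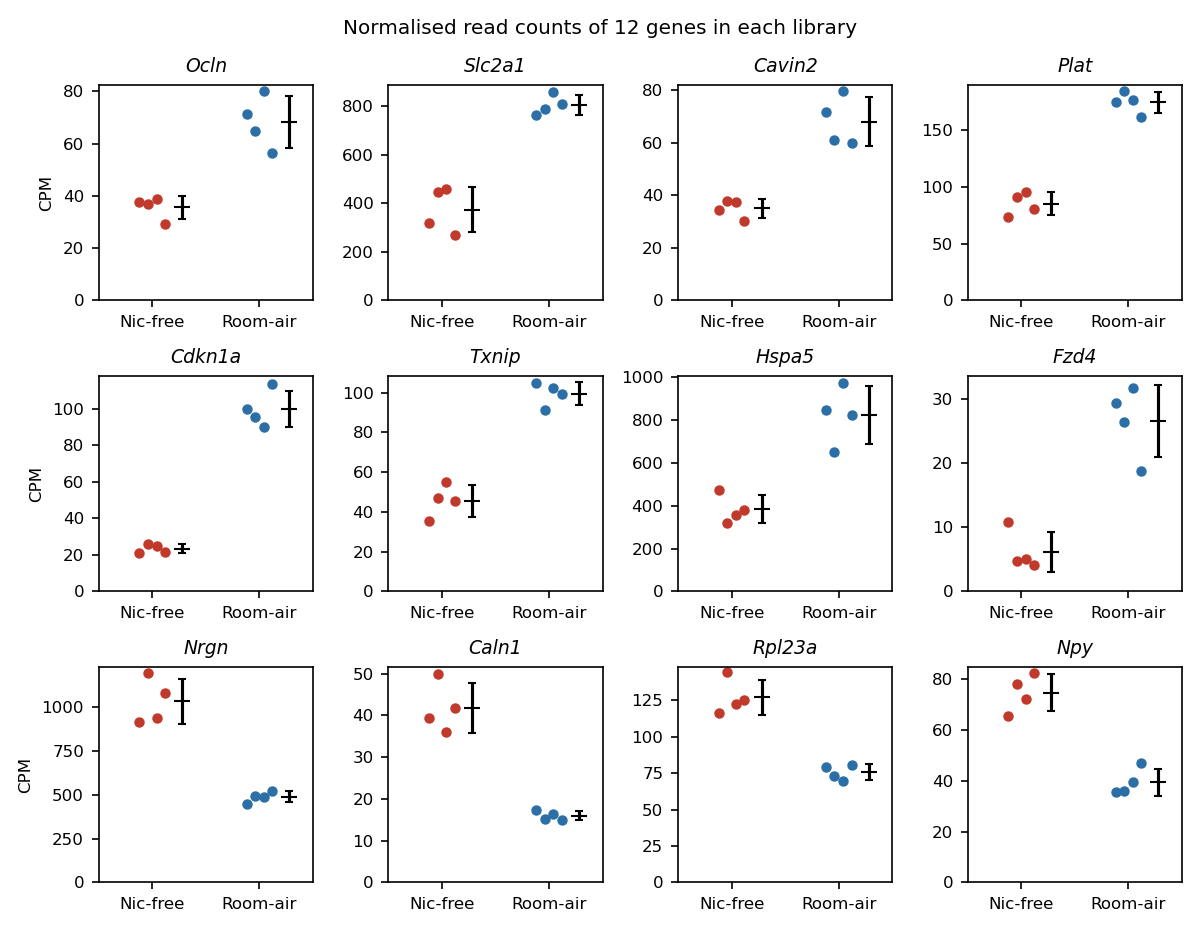
Points give normalised read counts (CPM, linear y axis starting at 0) of 12 genes in the 4 Nic-free libraries (red, left) and the 4 Room-air libraries (blue, right), and the bar beside each group gives its mean and SD. In all 12 panels the groups do not overlap; Nrgn, Caln1, Rpl23a and Npy are higher in Nic-free and the other 8 lower.

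Genes that fold proteins in the endoplasmic reticulum fell together: of 30 tested, 17 fell, none rose and the median log2 fold change was −0.51. The list covers the unfolded protein response, in which sensors of the reticulum (Ern1, Eif2ak3, Atf6) switch on chaperones when unfolded proteins gather. Its founding target is Hspa5, whose product BiP is the main chaperone of the reticulum and binds those sensors. The response elements of such genes consist of CCAAT and CCACG held 9 bases apart, the endoplasmic reticulum stress element. Windows of 300 bases around the RefSeq start (250 before and 50 after; GRCm38.p6) were searched for this element on both strands, with any 9 bases between its ends. It occurred in 37 of 27025 genes (0.137%) and in 20 of the 12585 tested genes with a window (0.159%). Of the 25 list members with a window 9 held it (36.0%): 7 of 15 that fell and 2 of 10 that did not pass. To show the element in its context, the 220 bases before the start of the 5 fallen members with the largest falls that hold one follow, read along each gene's strand, with the 5 bases at both ends of the element in capitals (CGTGG and ATTGG where it lies on the other strand).
Derl3 (chr10:75893178-75893397, plus strand): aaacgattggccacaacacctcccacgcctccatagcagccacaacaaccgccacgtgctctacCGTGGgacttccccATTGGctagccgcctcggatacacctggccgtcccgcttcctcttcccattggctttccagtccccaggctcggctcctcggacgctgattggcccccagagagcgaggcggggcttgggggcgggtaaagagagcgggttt
Hspa5 (chr2:34771870-34772089, plus strand): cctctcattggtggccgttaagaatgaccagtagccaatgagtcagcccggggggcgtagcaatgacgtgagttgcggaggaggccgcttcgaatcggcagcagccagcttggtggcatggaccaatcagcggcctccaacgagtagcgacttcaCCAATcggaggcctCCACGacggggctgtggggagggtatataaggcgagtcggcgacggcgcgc
Creld2 (chr15:88819426-88819645, plus strand): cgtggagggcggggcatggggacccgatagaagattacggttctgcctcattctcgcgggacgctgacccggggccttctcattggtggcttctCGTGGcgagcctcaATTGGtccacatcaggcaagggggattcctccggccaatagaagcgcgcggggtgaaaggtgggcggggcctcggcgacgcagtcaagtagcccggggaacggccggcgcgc
Dnajc3 (chr14:118937712-118937931, plus strand): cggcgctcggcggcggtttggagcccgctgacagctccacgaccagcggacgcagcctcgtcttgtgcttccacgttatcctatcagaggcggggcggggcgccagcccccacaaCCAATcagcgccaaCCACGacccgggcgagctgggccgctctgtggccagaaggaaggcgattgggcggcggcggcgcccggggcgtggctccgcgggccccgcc
Hsp90b1 (chr10:86705445-86705664, minus strand): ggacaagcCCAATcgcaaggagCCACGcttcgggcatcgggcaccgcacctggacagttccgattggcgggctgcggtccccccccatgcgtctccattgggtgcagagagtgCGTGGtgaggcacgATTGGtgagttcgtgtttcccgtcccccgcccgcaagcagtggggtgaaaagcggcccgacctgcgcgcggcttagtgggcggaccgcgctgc

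The element began 65 bases before the start in Hspa5, 105 in Dnajc3, 126 in Creld2 and 156 in Derl3, and Hsp90b1 held a pair of them, at 107 and 212. Calr and Pdia6 also fell and held one. Canx and Syvn1 held one and did not pass (log2 −0.20 and −0.25). A match describes the letters of the window and shows no binding.

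Hspa5 stood at 472, 319.6, 356 and 380.3 CPM in Nic-free, against 847, 648, 974 and 821 CPM in Room-air. The highest Nic-free library, Nic-free 1, stood below the lowest Room-air library (log2 −1.11 ± 0.15, edgeR adjusted p 0.000605). Derl3, which moves misfolded proteins out of the reticulum, averaged 1.30 ± 0.0626 CPM in Nic-free and 3.42 ± 0.407 CPM in Room-air (SD, n = 4 each) and had the largest fall of the list (log2 −1.39 ± 0.21, edgeR adjusted p 0.000846). Sdf2l1, a cofactor of BiP, measured 21.2, 14.1, 15.0 and 14.9 CPM in the Nic-free libraries and 37.2, 34.2, 41.9 and 37.2 CPM in the Room-air libraries, again apart (log2 −1.21). Falls were also called for the secreted factors Manf (log2 −0.89) and Creld2 (−0.71), for the BiP cofactors Dnajc3 (−0.68) and Dnajb11 (−0.61), for Hsp90b1, the HSP90 of the reticulum (−0.65), for the lectin chaperone Calr (−0.58), and for the disulfide isomerases Pdia6 (−0.64), Pdia4 (−0.64) and Pdia3 (−0.47). Pdia3 (edgeR adjusted p 0.0768 without Room-air 3) lost its call with 1 library left out.

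Of the sensors and transcription factors above them, some fell and some did not pass. Xbp1, the transcription factor that the sensor Ern1 activates, fell (log2 −0.62), as did Ern1 (−0.58) and Eif2ak3 (−0.41), while Atf6 had −0.14 and Atf4, in the arm below Eif2ak3, 0.21; neither passed. Of 23 genes of ATF4 and amino acid stress 2 rose (1 without Nic-free 3) and 2 fell, 8.70% each and below both shares of all genes. Psat1 and Phgdh, enzymes of serine synthesis, rose (log2 0.47 for Psat1). Ddit4, an inhibitor of mTOR signalling, and Slc7a5 fell (−1.21 and −0.72). Ddit3, which encodes CHOP, did not pass (0.28). Among 25 heat shock protein genes of the cytosol and mitochondria 4 fell (0 without Nic-free 2) and none rose, 2 of them Hspb8 (−0.59) and Hsph1 (−0.52). The summed share of the 30 reticulum genes was 0.417, 0.348, 0.364 and 0.378% in Nic-free, against 0.581, 0.478, 0.635 and 0.569% in Room-air. Against the air libraries the median of the reticulum list was 0.00. Phgdh (edgeR adjusted p 0.0749 without Nic-free 3), Hspb8 (0.0725 without Room-air 3) and Hsph1 (0.093 without Nic-free 2) lost their calls with 1 library left out.

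**Figure D4:**
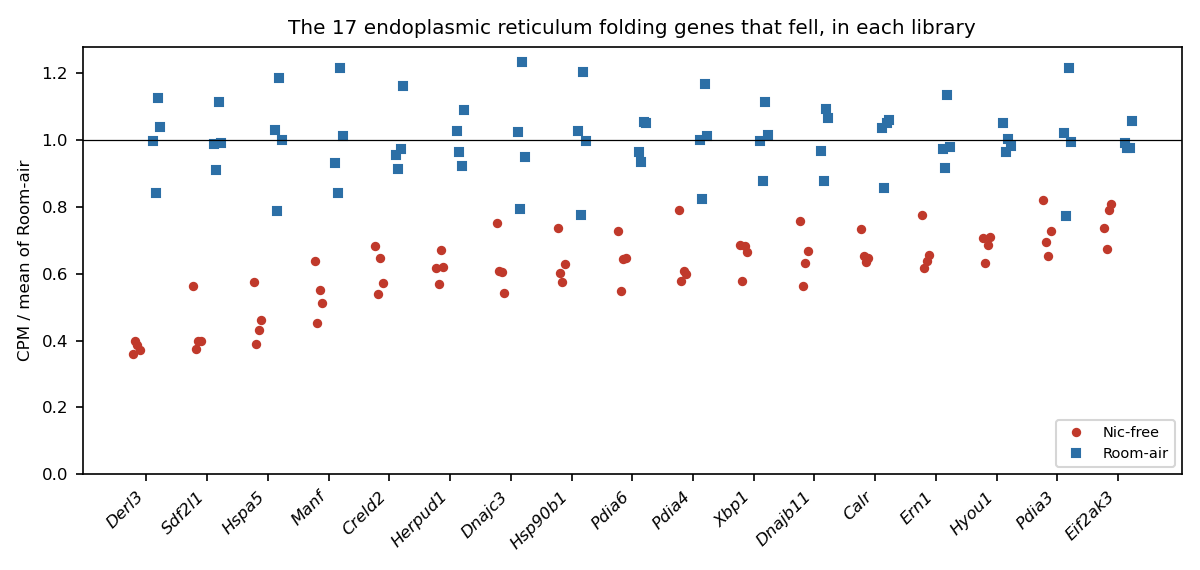
Each point is a gene's CPM in 1 library divided by the mean of the 4 Room-air libraries (y axis, no unit), for the 17 endoplasmic reticulum folding genes that fell, ordered by size of fall (Nic-free red circles on the left of each pair, Room-air blue squares on the right). Derl3, Sdf2l1 and Hspa5 fell most, with log2 fold changes of −1.39, −1.21 and −1.11.

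Cdkn1a, which encodes the cell cycle inhibitor p21 (chromosome 17, 29090976 to 29100727), had 20.9, 26.1, 24.7 and 21.5 CPM in the Nic-free libraries, against 99.8, 95.6, 90.2 and 113 CPM in the Room-air libraries. The lowest Room-air value was far above the highest Nic-free value, and no other gene tested had a smaller p (log2 −2.10 ± 0.10, edgeR adjusted p 6.21e-08). Map3k6, a stress kinase, stood at 6.06, 12.97, 8.28 and 6.41 CPM in Nic-free, against 35.3, 42.2, 60.4 and 40.2 CPM in Room-air (log2 −2.39). Angptl4, a lipoprotein lipase inhibitor, and Plin4, a lipid droplet protein, fell by 2.04 and 1.90 on the log2 scale. Tmem252, a membrane protein, measured 4.29, 6.19, 6.37 and 3.74 CPM in the Nic-free libraries and 13.4, 10.98, 43.8 and 13.5 CPM in the Room-air libraries; Room-air 3 is far above the rest of its group (log2 −1.97 ± 0.58, edgeR adjusted p 0.0413; 0.103 without Nic-free 4). The other members of the 10 largest falls were Zfp366, a repressor of transcription (−1.93), Zim1, an imprinted zinc finger gene (−1.83), Dnah6 and Trpm3, given with the ciliary and choroid genes below, and Fzd4.

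Known p53 targets fell in 5 of 24 with 1 rise, with Cdkn1a, the death receptor Fas (log2 −1.50), Pmaip1 (−1.24), Trp53inp1 (−0.87) and Perp (−0.85) lower and Plk2 (0.27) higher. The median of the list was −0.06. In the insulin and FoxO axis 5 of 21 genes fell (3 without Nic-free 4) and 2 rose (1 without Nic-free 1). Txnip, an inhibitor of thioredoxin and of glucose uptake, had 35.6, 46.8, 55.2 and 45.3 CPM in the Nic-free libraries, against 105, 91.5, 102 and 99.1 CPM in the Room-air libraries. The groups were apart (log2 −1.12 ± 0.12, edgeR adjusted p 0.000128). Irs2, an adaptor of the insulin receptor, stood at 8.59, 7.68, 8.86 and 9.08 CPM in Nic-free, against 19.5, 17.6, 17.5 and 13.7 CPM in Room-air (log2 −0.998 ± 0.15, edgeR adjusted p 0.000921). Irs1 (−0.39) and the receptor Igf1r (−0.64) fell too, and the neuronal factor Foxo6 rose (0.51). Sik2, a kinase of the AMPK family, and Anxa11, an annexin, were among the 10 smallest p (log2 −0.92 and −1.34). Perp (edgeR adjusted p 0.0593 without Nic-free 2), Plk2 (0.114 without Nic-free 1), Irs1 (0.0851 without Nic-free 4), Igf1r (0.069 without Nic-free 4) and Foxo6 (0.0608 without Nic-free 3) lost their calls with 1 library left out.

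Sgk1, Tsc22d3 and Fkbp5, each known to be induced by glucocorticoids, fell; the 3 were picked after their values were seen, and no list of such genes was counted. Sgk1, a kinase, measured 73.4, 60.04, 45.9 and 48.4 CPM in the Nic-free libraries and 173, 169, 174 and 242 CPM in the Room-air libraries (log2 −1.74 ± 0.25, edgeR adjusted p 0.00135). Tsc22d3, the glucocorticoid-induced leucine zipper, had 58.9, 81.3, 69.3 and 63.3 CPM in the Nic-free libraries, against 157, 132, 154 and 202 CPM in the Room-air libraries, and Fkbp5, a cochaperone of the receptor, stood at 18.7, 24.8, 19.3 and 19.7 CPM in Nic-free, against 30.4, 37.3, 44.7 and 51.9 CPM in Room-air. For none of the 3 did the groups overlap. Of 20 clock genes 6 rose and 6 fell. Dbp, an output gene of the clock, averaged 136 ± 13.3 CPM in Nic-free and 75.7 ± 9.81 CPM in Room-air (SD, n = 4 each; log2 0.84 ± 0.10, edgeR adjusted p 0.000312). Bhlhe41 (log2 0.67) and Ciart (0.47) rose with it, while Per1 (−0.42), Per2 (−0.56) and Nfil3 (−0.63) fell. Ciart (edgeR adjusted p 0.0901 without Room-air 3) and Per1 (0.0576 without Nic-free 2) lost their calls with 1 library left out.

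Of 24 neuronal genes of calcium and calmodulin binding 15 rose, none fell and the median log2 fold change was 0.46. These proteins bind calcium or hold calmodulin, the calcium sensor that switches on the kinase and phosphatase of synaptic plasticity. Caln1, a calneuron, measured 39.5, 49.98, 36.0 and 41.9 CPM in the Nic-free libraries and 17.4, 15.3, 16.3 and 14.9 CPM in the Room-air libraries, with the lowest Nic-free value above the highest Room-air value (log2 1.39 ± 0.11, edgeR adjusted p 4.44e-05). Nrgn, neurogranin, which stores calmodulin in dendrites (chromosome 9, 37544492 to 37552904), had 916, 1194, 937 and 1080 CPM in the Nic-free libraries, against 449, 492, 487 and 524 CPM in the Room-air libraries. Its groups were widely apart (log2 1.08 ± 0.10, edgeR adjusted p 7.2e-05). The kinase inhibitor Camk2n1 (log2 0.86), the kinase Camk2a (0.45), the calcineurin subunit Ppp3ca (0.96) and the calmodulin gene Calm2 (0.41) rose with them. The 24 genes summed to 1.24 to 1.51% of gene counts in Nic-free and 0.888 to 0.984% in Room-air. Camk2a (edgeR adjusted p 0.0521 without Nic-free 2) lost its call with 1 library left out.

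Of 43 genes on the list of glutamate and GABA receptors 14 rose (8 without Nic-free 2) and 2 fell (1 without Nic-free 1). Gabrb1, a subunit of the GABA-A receptor, stood at 81.4, 91.2, 70.7 and 85.0 CPM in Nic-free, against 34.7, 22.1, 36.6 and 42.8 CPM in Room-air (log2 1.27 ± 0.18, edgeR adjusted p 0.00077). The glutamate receptor subunits Gria2 (log2 0.64) and Grin2b (0.57) rose. The 2 falls were Grid2ip, a scaffold of cerebellar synapses and not itself a receptor (−0.90), and Grm4, a metabotropic receptor of the cerebellum (−0.38). Potassium channels, 81 in all, had 19 rises (10 without Nic-free 4) and 7 falls (2 without Nic-free 2), led by the background channel Kcnk2 (0.79) and by its relative Kcnk9 (−1.14) on opposite sides. Of 37 voltage-gated calcium and sodium channel genes 9 rose and 2 fell (1 without Nic-free 1), with Scn2a at 0.93 and Cacna1e at −0.72. Among 76 genes of presynaptic vesicles 19 rose (9 without Nic-free 4) and 6 fell (3 without Nic-free 2), with Syt11 (0.98), Cplx2 (0.78) and Syp (0.64) higher and Syt14 (−0.95) and Vamp1 (−0.64) lower. Gria2 (edgeR adjusted p 0.0995 without Room-air 2) and Grm4 (0.123 without Nic-free 2) lost their calls with 1 library left out.

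Neuropeptides rose in 3 of 14 genes of the hormone list, with none lower. Npy, neuropeptide Y of cortical interneurons, measured 65.6, 78.1, 72.1 and 82.5 CPM in the Nic-free libraries and 35.7, 35.8, 39.3 and 46.9 CPM in the Room-air libraries, a rise without overlap (log2 0.92 ± 0.10, edgeR adjusted p 0.000185). Somatostatin, Sst, rose by 0.92 and the enkephalin precursor Penk by 0.66. The hypothalamic peptides Avp and Oxt were high in Room-air 1 alone, at 35.0 and 21.4 CPM, with Avp between 0.714 and 7.91 CPM and Oxt between 0.297 and 1.86 CPM in the 4 Nic-free libraries. In the other Room-air libraries Avp reached 3.44 CPM and Oxt 0.402 CPM, and neither gene passed.

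Beside Caln1, Nrgn and Gabrb1, the 10 largest rises by the naming rule held C1ql3, a secreted synaptic organiser (log2 1.31 ± 0.17, edgeR adjusted p 0.000427), the homeobox factor Hhex (log2 1.37), the lipase Pla2g4e (1.16), the membrane protein Ptchd4 (1.15), the nucleic acid binding protein Purb (1.08), the neuronal splicing factor Celf4 (1.07) and Hes5. By p, the neural factor Pou3f1 (0.97), the adhesion protein Flrt1 (1.05), the transcriptional cofactor Lmo4 (0.84) and Ttc9b (0.95) were among the 10 smallest. Pou3f1 had 32.7, 34.0, 31.4 and 36.4 CPM in the Nic-free libraries, against 16.4, 17.1, 17.8 and 17.4 CPM in the Room-air libraries, the values within a group lying close together.

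Markers of neurons, oligodendrocytes, microglia and astrocytes moved with these rises. Neuronal markers rose in 10 of 20 with none lower (median log2 0.29), oligodendrocyte markers in 6 of 11 (0.46), microglial markers in 8 of 15 (0.35) and astrocyte markers in 5 of 13 with 1 lower (0.18). Without Nic-free 1 the oligodendrocyte count was 3, without Nic-free 4 the microglial count was 5, and without Nic-free 2 the astrocyte count was 3. Of 8 markers of oligodendrocyte precursors 2 rose and 1 fell, with a median log2 of −0.007. That list had 1 rise without Nic-free 4 and 0 falls without Nic-free 2. The astrocyte protein S100b averaged 356 ± 13.3 CPM in Nic-free and 193 ± 18.1 CPM in Room-air (SD, n = 4 each; log2 0.88 ± 0.11, edgeR adjusted p 0.000366), and the filament Gfap rose by 0.63. In microglia Aif1, which encodes Iba1, stood at 13.2, 17.4, 11.9 and 15.1 CPM in Nic-free, against 6.46, 7.70, 6.77 and 8.66 CPM in Room-air (log2 0.96 ± 0.16, edgeR adjusted p 0.00139). Cx3cr1, the fractalkine receptor, rose by 0.49. The myelin gene Mbp rose by 0.62. Of 8 perivascular macrophage markers 1 fell, Cd163 (−0.71), a share of 12.5% against 10.4% of all genes. Markers of neutrophils and monocytes fell in none of 5. Mbp (edgeR adjusted p 0.0722 without Room-air 3) and Cd163 (0.103 without Room-air 3) lost their calls with 1 library left out. The part of these markers in the rises of neuronal genes was not tested.

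Of 83 genes of cytosolic ribosomal proteins 44 rose (23 without Nic-free 2), none fell and 80 had a positive fold change, with a median log2 of 0.40. Their products form both subunits of the ribosome. Rpl38 measured 91.7, 119.9, 107 and 99.4 CPM in the Nic-free libraries and 56.5, 63.4, 56.7 and 64.0 CPM in the Room-air libraries. Each Nic-free value was above each Room-air value (log2 0.80 ± 0.14, edgeR adjusted p 0.00217). Rpl23a had 116, 144, 122 and 125 CPM in the Nic-free libraries, against 79.4, 73.0, 69.7 and 80.8 CPM in the Room-air libraries, likewise apart (log2 0.75 ± 0.10, edgeR adjusted p 0.000395). Rps28, of the small subunit, rose by 0.70, while Rplp0, of the stalk, and Rps6, the target of S6 kinase, did not pass (log2 0.24 and 0.21). The 83 genes took 1.40, 1.67, 1.60 and 1.40% of gene counts in Nic-free, against 1.17, 1.20, 1.11 and 1.17% in Room-air. Many of these genes have near-identical pseudogene copies, so how reads were divided among the copies is uncertain. Processed pseudogenes, in which such copies are common, rose in 73 of 269 and fell in 6, with a median log2 of 0.35. Against the air libraries the ribosomal list had a median of −0.11.

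Complex I genes rose in 9 of 46 with none lower (median log2 0.15), genes of complexes III and IV and of ATP synthase rose in 11 of 41 with 1 lower (0.17), and mitochondrial ribosomal proteins rose in 8 of 76 (10.5%, below the 11.3% of all genes) with none lower (0.08). Without Nic-free 2 the last 2 counts of rises were 5 and 2. Ndufb4, a subunit of complex I, stood at 14.1, 18.1, 10.8 and 15.8 CPM in Nic-free, against 7.50, 8.10, 7.39 and 8.13 CPM in Room-air, apart between groups (log2 0.92 ± 0.14, edgeR adjusted p 0.000846). Cox6a1, of cytochrome oxidase, rose by 0.62, and the fall was of Cox6b2, an isoform known from testis (−0.63). Small nuclear ribonucleoprotein and Sm or Lsm genes rose in 6 of 24 (2 without Nic-free 2) with none lower, among them Snrpb2 (0.46), and proteasome subunits rose in 3 of 38 (7.89%, also below it) with 1 lower. Cox6b2 (edgeR adjusted p 0.107 without Nic-free 4) lost its call with 1 library left out.

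Many of these genes are short, and over all protein-coding genes the calls went with exonic length. The rank correlation of length with log2 fold change was weak (Spearman −0.14). In 10 bins of 1519 protein-coding genes by exonic length, the shortest bin (up to 1767 bases) had 18.4% higher and 4.94% lower, with a median log2 of 0.13. Its summed share of protein-coding counts did not rise with the calls. That share was 6.80, 6.25, 6.06 and 5.26% in Nic-free, against 6.37, 6.52, 6.82 and 7.12% in Room-air. The longest bin (9829 bases and over) had 10.3% higher and 20.1% lower, with a median of −0.07. Without the ribosomal protein and mitochondrial lists, 1401 genes of the shortest bin still had 17.3% higher and 5.28% lower. Ribosomal protein genes had a median of 0.41 within the shortest bin (41 genes) and 0.39 outside it (42 genes). With a length term in the fit the median of all 83 was 0.33. The part that the larger share of reads assigned to no feature in Nic-free has in this trend was not tested.

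**Figure D5:**
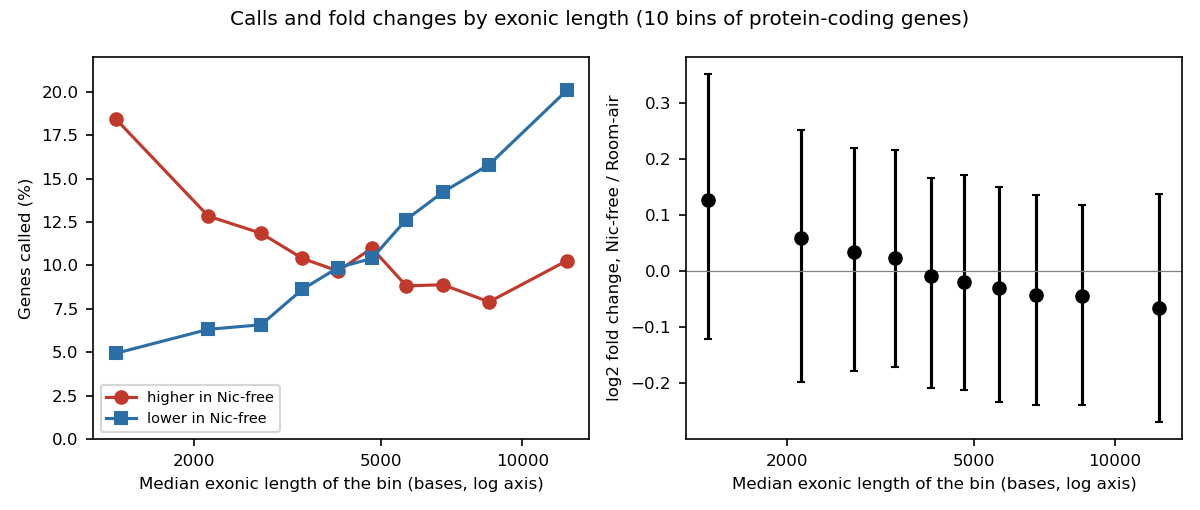
For 10 bins of 1519 protein-coding genes each, the left panel gives the percentage called higher (red circles) or lower (blue squares) in Nic-free, and the right panel the median log2 fold change with its quartiles, both against the median exonic length of the bin (bases, log axis). Rises make up 18.4% of the shortest bin and falls 20.1% of the longest.

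Motile cilium genes, which build the beating cilia of ependyma and choroid plexus, fell in 30 of 73 with none higher, and 68 of the 73 had a negative fold change (median log2 −0.61). Foxj1, the master factor of motile cilia, measured 28.01, 19.2, 17.5 and 10.3 CPM in the Nic-free libraries and 39.1, 37.1, 32.6 and 31.4 CPM in the Room-air libraries. The groups did not overlap, and Nic-free 4 was the lowest (log2 −0.91 ± 0.22, edgeR adjusted p 0.0128). Dnah6, an axonemal dynein, had 14.9, 10.3, 9.02 and 4.07 CPM in the Nic-free libraries, against 33.7, 30.8, 44.2 and 26.4 CPM in the Room-air libraries (log2 −1.82 ± 0.32, edgeR adjusted p 0.00372). Hydin, of the central pair, fell by 1.22 and Rsph4a, of the radial spoke, by 1.57 on the log2 scale. Summed over the list, the share of gene counts was 0.0890, 0.0720, 0.0631 and 0.0542% in Nic-free, against 0.106, 0.105, 0.115 and 0.105% in Room-air.

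The order of the Nic-free libraries in these sums is the order of their choroid markers. Ttr, transthyretin, the most abundant transcript of choroid plexus, stood at 18250, 7518, 4298 and 836 CPM in Nic-free, against 16128, 18100, 20591 and 24042 CPM in Room-air. Nic-free 1 lies inside the Room-air range and Nic-free 4 far below it, and the fold change did not pass (log2 −1.35 ± 0.78, edgeR adjusted p 0.252). Trpm3, a cation channel of choroid epithelium, measured 148, 77.7, 52.8 and 23.1 CPM in the Nic-free libraries and 259, 241, 367 and 175 CPM in the Room-air libraries, which passed (log2 −1.79 ± 0.54, edgeR adjusted p 0.0462; 0.109 without Nic-free 3). Of the 12 choroid and ependymal markers 2 fell (8 without Nic-free 1), Foxj1 and Dynlrb2 (log2 −1.36), 8 were lower in all 4 Nic-free libraries than in all 4 Room-air libraries, and the median log2 was −1.45. In a fit over all 19 libraries neither Foxj1 nor Dynlrb2 passed by edgeR.

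Of 17 iron genes 2 rose (11.8%) and 5 fell (29.4%), with 1 and 1 without Nic-free 2. Tfrc, the transferrin receptor that takes iron across the barrier, had 226, 227, 261 and 248 CPM in the Nic-free libraries, against 147, 161, 159 and 154 CPM in the Room-air libraries, and rose (log2 0.63 ± 0.13, edgeR adjusted p 0.00525). Fth1, the heavy chain of ferritin, which stores iron, rose with it: it stood at 4390, 4371, 4201 and 4108 CPM in Nic-free, against 2680, 3103, 2736 and 2705 CPM in Room-air (log2 0.60 ± 0.16, edgeR adjusted p 0.0185; 0.0502 without Nic-free 2). Steap2, a metalloreductase, fell (log2 −1.48) with Nic-free 1 highest of its group at 69.4 CPM, and the ferroxidase Heph (−0.55) and the ferritin receptor Ncoa4 (−0.69) fell as well. Glutathione transferases rose in 6 of 20 and fell in 1. Mgst3 measured 41.0, 53.4, 55.7 and 57.6 CPM in the Nic-free libraries and 36.7, 35.0, 27.97 and 32.3 CPM in the Room-air libraries (log2 0.65 ± 0.11, edgeR adjusted p 0.00177), and Gstm1, a member of a family of similar genes, rose by 0.64; Mgst1 fell by 0.51 on the log2 scale. Aldehyde and carbonyl detoxification genes, of interest because heated carrier liquids can release aldehydes, rose in 2 of 24 (1 without Nic-free 1), Akr1b10 (0.41) and Cbr3 (0.41), and fell in none. Their share of 8.33% is below the 11.3% of all genes. Aldh2, the mitochondrial aldehyde dehydrogenase, had a log2 fold change of −0.43 and did not pass (edgeR adjusted p 0.0719). Prdx6, a peroxiredoxin, rose by 0.47, and Nqo1, a quinone reductase, did not pass (−0.71). Of 26 genes of peroxiredoxins, thioredoxins, dismutases and peroxidases 2 rose (7.69%) and 1 fell (3.85%), below the 11.3% and 10.4% of all genes. Without Nic-free 1 there was 1 rise. The falls ran from 0 without Nic-free 2 to 2 without Room-air 4. Steap2 (edgeR adjusted p 0.099 without Nic-free 2), Heph (0.0896 without Nic-free 4) and Cbr3 (0.103 without Nic-free 3) lost their calls with 1 library left out.

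Genes of antigen presentation by MHC class I had no call in either direction among 16 tested by edgeR, with 1 higher and 2 lower at an unadjusted p under 0.05 and 1 lower by DESeq2, and their median log2 was 0.00. Of 23 genes of amyloid production and clearance 3 rose and 4 fell (1 and 2 without Nic-free 2), with Bace1, the beta-secretase, at 0.25, tau, Mapt, at 0.46 and the cholesterol exporter Abca1 at −0.38; App itself did not pass (−0.04). Cholesterol synthesis and uptake had 4 rises (1 without Nic-free 2) and no fall among 27 genes. Acat2 (0.58) and Pmvk (0.32), enzymes of the pathway, were among the rises. Fatty acid synthesis had 2 falls (1 without Nic-free 2) among 19 genes, Elovl7 (−0.97) and Acacb (−0.83). That share of 10.5% is close to the 10.4% of all genes. Bace1 (edgeR adjusted p 0.15 without Nic-free 4), Abca1 (0.126 without Room-air 3), Pmvk (0.0713 without Nic-free 2) and Elovl7 (0.0675 without Nic-free 2) lost their calls with 1 library left out.

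Genes of chromatin and transcription control had more falls than rises in 3 lists. Among 358 genes of the Zfp zinc finger family 42 fell (11.7%) and 11 rose (3.07%), against 10.4% and 11.3% of all genes (20 and 2 without Nic-free 2), and the median log2 was −0.05. Enzymes of histone methylation and demethylation fell in 9 of 39 (5 without Nic-free 2) and rose in 4 (2 without Nic-free 1). Their falls made up 23.1%, and their median exonic length was 9596 bases. In the length bin that holds it, 15.8% of protein-coding genes fell. Kdm5d, a histone H3 lysine demethylase of the Y chromosome, had 32.4, 25.2, 24.9 and 27.1 CPM in the Nic-free libraries, against 44.4, 43.1, 43.6 and 44.4 CPM in the Room-air libraries. Its X-linked homolog Kdm5c stood at 57.9, 58.4, 57.0 and 55.0 CPM in Nic-free, against 84.2, 88.2, 77.6 and 76.4 CPM in Room-air. Both fell without overlap (log2 −0.68 ± 0.09, edgeR adjusted p 0.000455 for Kdm5d and log2 −0.52 for Kdm5c), whereas Kdm5a rose (0.49). Histone genes had 5 falls (2 without Nic-free 3) and 3 rises (1 without Nic-free 4) among 26. The falls included Hist1h1d (−2.38) and Hist2h4 (−1.71), replication-dependent genes whose transcripts mostly lack a poly(A) tail and which stood below 2 CPM in every library; H1fx, a replication-independent linker histone, rose (0.77).

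Mir99ahg, the host gene of a microRNA cluster (chromosome 16, 77236317 to 77773427), measured 45.9, 44.9, 34.3 and 40.5 CPM in the Nic-free libraries and 12.8, 10.4, 19.6 and 22.3 CPM in the Room-air libraries. The groups did not overlap (log2 1.35 ± 0.26, edgeR adjusted p 0.00487). The gene of miR-99a, which lies within it, had a log2 fold change of 1.94 at a mean of 2.15 CPM in Nic-free (edgeR adjusted p 0.00268), and that of let-7c 1.22, which did not pass. The counts come from polyadenylated RNA and stand for host or primary transcripts, not for the mature forms. Those the cluster encodes, from RefSeq (GRCm38.p6), are shown because the rise concerns their host, with the seed (bases 2 to 8) in capitals.
mmu-miR-99a-5p (chr16:77598940-77598961, plus strand): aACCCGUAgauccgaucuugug
mmu-let-7c-5p (chr16:77599672-77599693, plus strand): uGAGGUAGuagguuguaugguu
mmu-miR-125b-5p (chr16:77646279-77646300, plus strand): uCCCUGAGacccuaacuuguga

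The 3 seeds differ, so the cluster holds 3 seed families. Malat1, a nuclear long noncoding RNA, had 8307, 9505, 7783 and 8949 CPM in the Nic-free libraries, against 4950, 5637, 6099 and 6250 CPM in the Room-air libraries and rose (log2 0.59 ± 0.11, edgeR adjusted p 0.00282). Pantr1, a brain long noncoding RNA next to a neural factor gene, rose by 0.80 and Zeb2os, antisense to Zeb2, by 0.61. By the same fit falls were called for Snhg17, a host of small nucleolar RNAs (−0.65), Mir124a-1hg, the host of the neuronal miR-124 (−0.60), and Rab10os, antisense to Rab10 (−0.53). Of 28 long noncoding RNAs and small nucleolar RNA hosts 7 rose (3 without Nic-free 2) and 3 fell. Zeb2os (edgeR adjusted p 0.0694 without Nic-free 2) lost its call with 1 library left out.

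The Nic-free libraries were also set directly against those of vapour with nicotine, a test without Room-air. Between Nic and Nic-free, 4273 genes passed, or 24.8% (edgeR). Because Nic-free enters both contrasts, which by itself favours opposite signs in them, no count of shared genes is given. The genes and lists below were taken up with their Room-air contrast known. Their values against Nic are therefore no separate support for that contrast. For Ocln the Nic libraries had 82.8, 57.3 and 85.0 CPM, all above the 29.1 to 38.9 CPM of Nic-free (Nic over Nic-free log2 1.07 ± 0.15, edgeR adjusted p 0.000423). Slc2a1 had 859, 664 and 966 CPM in Nic, against 271 to 459 CPM in Nic-free (Nic over Nic-free log2 1.15 ± 0.17, edgeR adjusted p 0.000617). Both genes were thus at levels in Nic that lay near or across the Room-air range. The endothelial markers, Slc2a1 among them, went the same way as a list. Of 20, 12 were higher in Nic than in Nic-free and none lower, against 24.8% of all genes called in either direction. Their summed share was 0.385 to 0.704% in Nic and 0.269 to 0.413% in Nic-free. What part this share has in both genes was not tested.

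Cdkn1a had 72.6, 79.8 and 84.2 CPM in Nic, against 20.9 to 26.1 CPM in Nic-free (Nic over Nic-free log2 1.76 ± 0.11, edgeR adjusted p 1.34e-06), and Hspa5 had 704, 648 and 949 CPM, against 320 to 472 CPM (Nic over Nic-free log2 1.01 ± 0.16, edgeR adjusted p 0.000975). Nrgn was lower in Nic, at 436, 461 and 479 CPM, against 916 to 1194 CPM in Nic-free (Nic over Nic-free log2 −1.17 ± 0.11, edgeR adjusted p 0.000162). Rpl38, at 61.4, 40.2 and 70.5 CPM in Nic against 91.7 to 120 CPM in Nic-free, was lower as well (Nic over Nic-free log2 −0.87 ± 0.16, edgeR adjusted p 0.00166). The lists of these genes are counted under the same limit. Of 30 reticulum genes 19 were higher in Nic than in Nic-free and 1 lower. Of the calcium-binding list 18 of 24 were lower in Nic, and of the ribosomal list 72 of 83, with none higher in either. Foxj1 did not pass between the vapour groups, with 17.5, 21.6 and 19.5 CPM in Nic against 10.3 to 28.01 CPM in Nic-free (Nic over Nic-free log2 0.07 ± 0.24, edgeR adjusted p 0.868), and neither did Tfrc (Nic over Nic-free log2 0.06 ± 0.14, edgeR adjusted p 0.801) or Mir99ahg (Nic over Nic-free log2 −0.46 ± 0.27, edgeR adjusted p 0.242). For these 3 genes a p above the threshold does not show that the vapour groups were alike.

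Set against the air libraries, which share the Nic-free libraries with the reported contrast, 21 of the 172 called genes named here passed in the same direction and 3 in the other. The rises on that side held Gabrb1 (log2 1.13, against 1.27 with Room-air as the control), C1ql3 (1.28, against 1.31), Mir99ahg (1.09, against 1.35), Scn2a (0.78, against 0.93), Syt11 (0.79, against 0.98), Grin2b (0.75, against 0.57), Dbp (0.71, against 0.84) and Hes5 (0.73, against 1.18). The falls were Derl3 (−1.19, against −1.39) and Col4a2 (−0.47, against −0.50). Klf2 (0.99, against −0.61), Slc7a5 (0.78, against −0.72) and Per1 (0.61, against −0.42) passed with the sign turned round. Ocln (0.21), Slc2a1 (0.42), Cdkn1a (0.04) and Hspa5 (−0.29) did not pass against air.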

How the data were processed

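The deposited values are counts, whole reads per Ensembl gene, which the authors made with STAR on the mouse build mm10 and HTSeq, per the submitters' processing notes; versions and the strand setting of counting are not given in the sources used here. RNA was polyadenylated and read as 80-base single ends from strand-specific libraries, per the labels' protocols. Of the 193 genes named, 83 overlap a gene on the opposite strand in the annotation, and their counts are uncertain. Names and positions are from GENCODE M21 (GRCm38), which holds 37607 of 39179 gene identifiers. Summary lines that name no gene (reads in no feature among them) were left out of totals and tests.

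Counts of the 4 Nic-free, 4 Room-air and 3 Nic libraries were fitted together (edgeR 4.0.16 quasi-likelihood test, TMM factors, edgeR's filter on low counts, R 4.3.3) and the Nic-free minus Room-air contrast was adjusted by Benjamini-Hochberg over 17235 genes. CPM are on TMM-scaled library sizes. The fit was tested on simulated data. Alternatives were RLE and upper-quartile factors, no filter and a filter of 1 CPM in 4 libraries, 8 or 19 libraries, DESeq2 1.42.0, limma-voom 3.58.1, a replicate block, thinning, a length term, the air set as control, and leaving out each library.

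The comparison, the 62 gene lists and the tests were chosen with earlier results of these data known. Genes were named by rule: protein-coding, past the threshold, without overlap between groups and at least 5 CPM in the higher group, the 10 largest rises and falls and 10 smallest p; 2 rises and 2 falls of each list by p; 4 noncoding rises and falls; and Ocln, Slc2a1, Cldn5 and Cdkn1a. The rule gave 199 genes, of which 114 appear; the other 79 were added after their values were seen.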

Additional observations from a re-analysis of the deposited data

Results flagged for a closer look

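In 27 of 386 groups of 4 values, those of each named gene in both groups, 1 library stood apart from the other 3 by more than Dixon's 95% limit; chance gives about 1 in 20. In Nic-free 1 these were Angptl4 (1.98 CPM), Fzd4 (10.8 CPM), Nfil3 (8.18 CPM), Pdia4 (113 CPM) and Sdf2l1 (21.2 CPM). For Nic-free 2 these were Akr1b10 (31.1 CPM), Camk2a (2933 CPM) and Fkbp5 (24.8 CPM). In Nic-free 3 this was Scn2a (332 CPM). For Nic-free 4 these were Hydin (1.54 CPM) and Vegfa (134 CPM). In Room-air 1 these were Avp (35.0 CPM), Calm2 (417 CPM), Lmo4 (93.2 CPM), Oxt (21.4 CPM) and Rps6 (106 CPM). For Room-air 2 these were Calr (715 CPM), Fth1 (3103 CPM) and Rab10os (72.9 CPM). In Room-air 3 these were Nqo1 (16.7 CPM) and Tmem252 (43.8 CPM). For Room-air 4 these were Atf4 (111 CPM), Col4a1 (240.3 CPM), Id4 (64.9 CPM), Myh9 (342 CPM), Notch4 (66.6 CPM) and Sgk1 (242 CPM). Nic-free 1 stood above its group for Fzd4, Pdia4 and Sdf2l1, toward the Room-air values, and Room-air 1 held the high values of Avp and Oxt. Apart from the gene counts, reads assigned to no feature averaged 42.1% in Nic-free, above the 30.7% in Room-air.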

How the results depend on the processing

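With the 4 air libraries in place of Room-air, 699 genes passed, 488 higher and 211 lower, and of the genes named 80 changed sign. Among named falls the log2 fold change was then positive for Abca1 (0.26), Abcb1a (0.30), Abcc4 (0.26), Abcg2 (0.33), Acacb (0.19), Adgrl4 (0.086), Bmp6 (0.35), Bmpr2 (0.26), Cacna1e (0.093), Cavin2 (0.032), Cd163 (0.58), Cdkn1a (0.040), Ddit4 (0.42), Dnajc3 (0.020), Eif2ak3 (0.0072), Ern1 (0.12), Fas (0.061), Fkbp5 (0.21), Foxj1 (0.0015), Fzd4 (0.35), Igf1r (0.46), Irs2 (0.078), Itga1 (0.16), Itga6 (0.39), Itgb1 (0.22), Itm2a (0.31), Kcnk9 (0.59), Klf2 (0.99), Lamb1 (0.035), Lamc1 (0.23), Map3k6 (0.10), Notch4 (0.46), Ocln (0.21), Pdia4 (0.0073), Pecam1 (0.33), Per1 (0.61), Plat (0.14), Plaur (0.16), Plin4 (0.25), Pmaip1 (0.080), Rsph4a (0.081), Sgk1 (0.018), Slc2a1 (0.42), Slc7a5 (0.78), Slco1c1 (0.33), Snhg17 (0.16), Syt14 (0.39), Tgfbr2 (0.31), Tgfbr3 (0.40), Thbd (0.34), Trp53inp1 (0.19), Tsc22d3 (0.18), Txnip (0.34) and Zfp366 (0.15). Among named rises it was negative for Acat2 (−0.063), Calm2 (−0.22), Fth1 (−0.37), Id2 (−0.17), Mbp (−0.49), Ndufb4 (−0.55), Pantr1 (−0.28), Phgdh (−0.013), Pmvk (−0.25), Psat1 (−0.19), Rpl23a (−0.54), Rpl38 (−0.65), Rps28 (−0.32) and Ttc9b (−0.17). Among named genes that had not passed, it was positive for Aldh2 (0.13), App (0.23), Avp (0.97), Canx (0.052), Cav1 (0.39), Dll4 (0.34), Kdr (0.41), Klf4 (0.94) and Syvn1 (0.20) and negative for Atf4 (−0.23), Ddit3 (−0.24) and Rplp0 (−0.26). The cause was not tested. Leaving out each library in turn gave 2186 to 3534 genes called, 1158 to 1719 higher and 1028 to 1829 lower, and 132 of 172 named calls held in each. Without Room-air 1 the fold changes of Avp and Oxt turned positive (1.30 and 1.51), and their lowest values were −1.99 and −3.62, without Nic-free 3; that of Cldn5 was −0.066 without Nic-free 3. The excess of reads assigned to no feature ran from 10.4 to 12.5 percentage points with each library left out in turn. The log2 fold change of Avp was 0.035 with limma-voom and that of App 0.040 with a length term. The other 11 settings gave between 3227 (all 19 libraries) and 4190 genes (the 8 libraries alone), within 1.5 times of 3753, and 141 of 172 named calls held in each of them. The calls of Abca1, Abcb1a, Acacb, Bace1, Bmpr2, Camk2a, Cbr3, Cox6b2, Dynlrb2, Elovl7, Foxj1, Foxo6, Gria2, Grm4, Heph, Hsph1, Igf1r, Irs1, Itga6, Itgb1, Pecam1, Perp, Phgdh, Plaur, Plk2, Slc4a2, Slco1c1, Steap2, Thbd, Tmem252 and Trpm3 were lost under at least 1 of them. With a replicate block 3274 genes passed, 1670 higher and 1604 lower. The deviations of libraries with the same number correlated at −0.06, −0.08, −0.07 and 0.10. Such values neither show nor exclude that libraries of the same number were paired, and no label pairs them. With upper-quartile factors the split was 2109 higher and 1694 lower, and with the length term 2041 and 1584. The named calls lost with the length term were Abca1, Bmpr2, Cbr3, Grm4, Heph, Hsph1, Igf1r, Irs1, Itga6, Itgb1, Slco1c1 and Thbd. After thinning to 15200536 counts per library 3436 passed. On simulated counts 49.3% of 1.5-fold, 94.0% of 2-fold and 97.0% of 4-fold changes were recovered with 4 libraries a group. Of the calls 7.51% fell on unchanged genes, more than the threshold of 0.05 aims at. The simulation changed 67, 67 and 66 of 17235 genes, far below the 21.8% called in the data. It drew genes independently, without a shared shift in cell content, so these shares may not carry over to the data.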
